A study of Mus musculus with 4 samples.

Results

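The 9 hypoxia response genes *Hif1a*, *Arnt*, *Egln1*, *Egln3*, *Vegfa*, *Bnip3*, *Ndrg1*, *P4ha1* and *Bhlhe40* were read by symbol from the gene tables of tumor-infiltrating Tc1 and Tc9 cells, which list 15981 genes in all. Of the 9 genes, *Bnip3* and *Egln1* passed a test across genes on all 4 libraries. They were higher in Tc9 than in Tc1 cells (1.87 and 1.61-fold). Of all genes in that test, 34.1% passed, in either direction. *Hif1a*, 2.18-fold higher in Tc9, passed a separate test on 3 libraries, which *Bnip3* passed and *Egln1* did not. The *Hif1a* value rests on 1 Tc1 library, and its call was lost with no filter on low counts, as that of *Egln1* was when either Tc1 library was left out. *Egln3* and *Arnt* did not pass either test. *Ndrg1* was higher and *Vegfa* and *Bhlhe40* lower in the only pair of libraries that could be compared for them, with no replicate in either group, and *P4ha1* differed there by less than the spread between the Tc9 replicates. Of all well-counted genes, 27.6% differed in that pair by more than that spread.

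RNA was sequenced from 4 libraries, 2 of Tc1 cells and 2 of Tc9 cells. Both groups were Thy1.1+ CD8+ T cells of Pmel-1 mice, a strain with a transgenic T cell receptor for the melanocyte antigen gp100. Tc1 cells had been polarized with IL-2, and Tc9 cells with IL-4, TGF-β and an antibody to IFN-γ. Both were then kept in standard medium with IL-2, for 5 days of culture in all. The cells were injected into Thy1.2+ C57BL/6 mice bearing 10-day subcutaneous B16 melanomas, and the protocol of this model included cyclophosphamide, peptide-pulsed dendritic cells and IL-2. Thy1.1+ cells were sorted from the tumors 14 days after transfer. Cells came from 6 mice and the RNA was pooled into 2 libraries per group. The sources do not state if each group had 6 mice of its own or if pools of a group share a mouse, so p-values measure the spread between these libraries. The sources used here give no age of the mice.

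Genes are listed in the character order of their identifiers, and each table reaches a different point in that order. Of Tc1, replicate 1 lists 1535 genes and replicate 2 lists 7408, and of Tc9 they list 3152 and 15442. As a result *Arnt*, *Egln1*, *Egln3* and *Bnip3* were measured in 4 libraries, *Hif1a* in 3 libraries, and *Vegfa*, *Ndrg1*, *P4ha1* and *Bhlhe40* in the replicate 2 libraries. Library depth lay between 30822953 and 31927162 counts. The replicates of a group were not equally close. Among genes with at least 500 counts, 95% differed by at most 0.16 on the log2 scale between the Tc1 libraries and by at most 0.50 between the Tc9 libraries. All 9 genes had at least 649 counts in every library that reached them and passed the filter on low counts.

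The cells expressed the genes of their labels. Over the 9 T cell markers, summed FPKM was 2136.6 in Tc1 and 2225.2 in Tc9 replicate 2. Single T cell markers differed, with *Cd3e* (log2 change 0.73, adjusted p = 0.0108) and *Cd3g* (0.49, 0.00995) higher and *Cd2* (-0.44, 0.0107) lower in Tc9 in the 4-library edgeR test. *Il9* had 3 counts in the Tc1 library that reached it, against 2601 and 2667 in the Tc9 libraries, and *Ifng* had 15303 counts against 5097 and 4700. Of the melanoma markers, *Tyrp1*, *Dct* and *Sox10* were at 0 in both replicate 2 libraries. *Pmel* had 69.97 counts in Tc1 and 116.53 in Tc9, *Tyr* 6 and 12.89, and *Mitf* 6 and 5. The summed FPKM of the 6 markers in reach was 0.57 in Tc1 and 0.97 in Tc9. Of the 11 myeloid markers, *Lyz2*, *C1qa*, *C1qc*, *S100a8* and *S100a9* were at 0 in both, and the summed FPKM was 6.35 in Tc1 and 12.8 in Tc9, nearly all of it from *Cd68* (226 and 221 counts in Tc1, 358 and 439 in Tc9). Fibroblast, B cell, NK cell, dendritic and erythroid markers summed to at most 0.63 FPKM in either library. Of 4 endothelial markers, *Cdh5* was at 0 and *Pecam1*, which T cells also express, had 445 counts in Tc1 and 446 in Tc9. The part of other cells in the values below was not tested. In RNA of pooled cells, fewer cells that express a gene and less RNA per cell cannot be told apart.

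Cells sense oxygen through hypoxia-inducible factors (HIFs). The α subunits HIF-1α (*Hif1a*) and HIF-2α (*Epas1*) are marked for destruction by prolyl hydroxylases of the EGLN family when oxygen is present, and in low oxygen they pair with the β subunit ARNT and switch on genes for oxygen supply, glycolysis and the removal of mitochondria. In CD8+ T cells, receptor and cytokine signals also raise HIF-1α, so that the pathway is active beyond low oxygen. The factor is controlled mainly at the level of its protein, which RNA does not show. HIF dimers bind a short core, ACGTG or GCGTG, in the hypoxia response element.

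Promoter windows of 250 bases before an annotated start (RefSeq, GRCm38.p6) were at hand for 7 of the 9 genes; *Ndrg1* and *Bhlhe40* had none. The windows of 3 genes are shown because they belong to the gene with the most copies of the core, *Bnip3*, and to the related oxygen sensors *Egln1*, which passed the test, and *Egln3*, which did not. Capitals mark ACGTG or GCGTG read on either strand, and sequences run 5′ to 3′ on the strand of the gene. *Bnip3* lies on the minus strand at chr7:138909507-138909756, *Egln1* on the minus strand at chr8:124949255-124949504 and *Egln3* on the minus strand at chr12:54203875-54204124.
Bnip3: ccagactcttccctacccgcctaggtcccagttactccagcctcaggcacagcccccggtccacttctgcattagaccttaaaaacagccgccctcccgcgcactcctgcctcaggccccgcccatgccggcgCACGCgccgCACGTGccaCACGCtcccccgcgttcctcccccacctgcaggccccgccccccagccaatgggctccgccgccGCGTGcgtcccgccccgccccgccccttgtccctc
Egln1: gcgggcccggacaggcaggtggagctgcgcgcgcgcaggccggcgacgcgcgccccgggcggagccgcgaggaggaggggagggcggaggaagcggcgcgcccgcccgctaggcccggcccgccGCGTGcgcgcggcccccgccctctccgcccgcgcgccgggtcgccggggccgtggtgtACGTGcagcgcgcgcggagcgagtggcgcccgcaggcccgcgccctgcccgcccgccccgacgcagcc
Egln3: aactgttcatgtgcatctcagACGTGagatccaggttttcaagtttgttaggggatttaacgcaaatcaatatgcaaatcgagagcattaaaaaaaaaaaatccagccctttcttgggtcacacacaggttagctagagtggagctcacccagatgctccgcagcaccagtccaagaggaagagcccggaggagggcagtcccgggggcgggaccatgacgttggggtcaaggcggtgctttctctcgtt
The *Bnip3* window holds 5 matches, 2 of ACGTG and 3 of GCGTG. Its 2 ACGTG matches are the same 6 bases, CACGTG, read on opposite strands. The *Egln1* window holds 1 match of each form, and the *Egln3* window holds 1 ACGTG match, 225 to 229 bases before the start.

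The windows of *Hif1a*, *P4ha1* and *Arnt* lie before starts inside the outermost gene coordinates. That of *Hif1a* (chr12:73907617-73907866, plus strand) holds 3 ACGTG matches, 2 of them again in 1 CACGTG. That of *P4ha1* (chr10:59323046-59323295, plus strand) holds 3 matches and that of *Arnt* (chr3:95434140-95434389, plus strand) 1. For *Vegfa*, the window before the outer start (chr17:46032378-46032627, minus strand) held no match. The window before an inner start (chr17:46025164-46025413, minus strand) lies within the gene and held 2. These matches are thus not upstream of the outer *Vegfa* start. In all, 7 of 8 windows of these genes, the inner one of *Vegfa* included, held at least 1 match. Beside this stand 38.6% of 32851 promoter windows of the same length. ACGTG was in 16.6% of all windows and GCGTG in 28.2%, with 6.13% holding both. A match is a run of letters and not a measured binding site. *Egln3*, which did not pass the test, and *Bnip3*, which did, both have one.

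**Figure D1:**
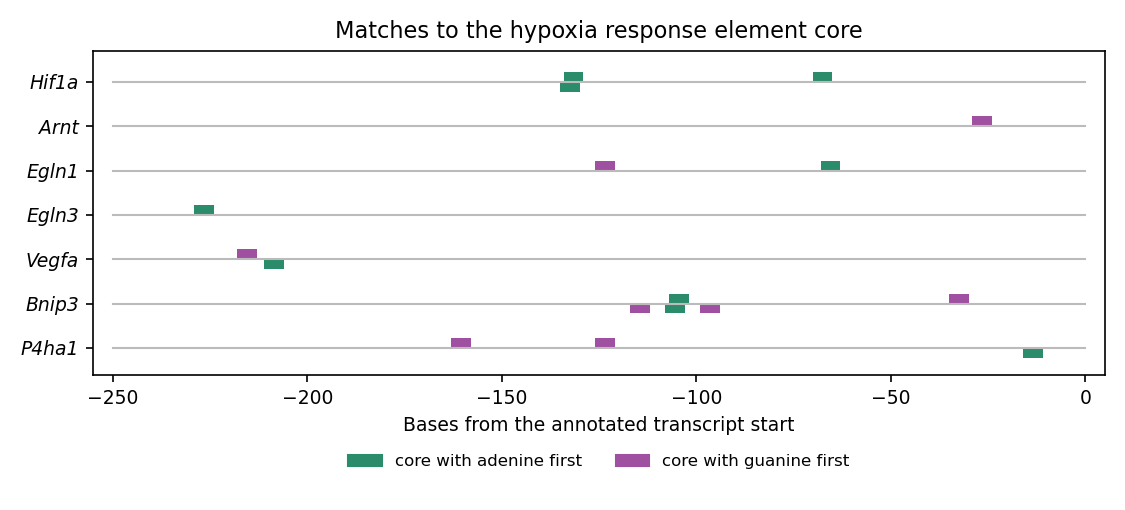
Matches to the core of the hypoxia response element in the 250 bases before an annotated transcript start. The x axis is the distance from the start in bases, boxes above a line are on the strand of the gene and boxes under it on the opposite strand, and color gives the first base of the core. *Bnip3* has 5 boxes, and those of *Vegfa* lie before its inner start, within the gene and not upstream of its outer start.

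Levels per gene length placed *Bnip3* highest in every library, among the 4 of the 9 genes that Tc1 replicate 1 reached, the 5 that Tc9 replicate 1 reached and all 9 in the replicate 2 libraries. In Tc1 replicate 2 the order in FPKM was *Bnip3* (84.34), *Bhlhe40* (67.35), *Hif1a* (63.71), *Egln3* (43.0), *Egln1* (34.44), *P4ha1* (22.78), *Ndrg1* (15.23), *Arnt* (12.87) and *Vegfa* (10.74). *Bhlhe40* and *Hif1a* were the closest neighbors, 0.080 apart on the log2 scale. In Tc9 replicate 2 the order was *Bnip3* (163.86), *Hif1a* (139.56), *Egln1* (58.37), *Egln3* (42.26), *Bhlhe40* (39.76), *Ndrg1* (25.82), *P4ha1* (20.97), *Arnt* (14.85) and *Vegfa* (6.82). The widest log2 gaps between neighbors there were *Hif1a* to *Egln1* (1.26), *Arnt* to *Vegfa* (1.12) and *Bhlhe40* to *Ndrg1* (0.62). The gap from *Bnip3* to *Hif1a* was 0.22 in Tc9 replicate 1 and 0.23 in Tc9 replicate 2. Whether the order of neighbors would hold in other libraries was not tested.

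**Figure D2:**
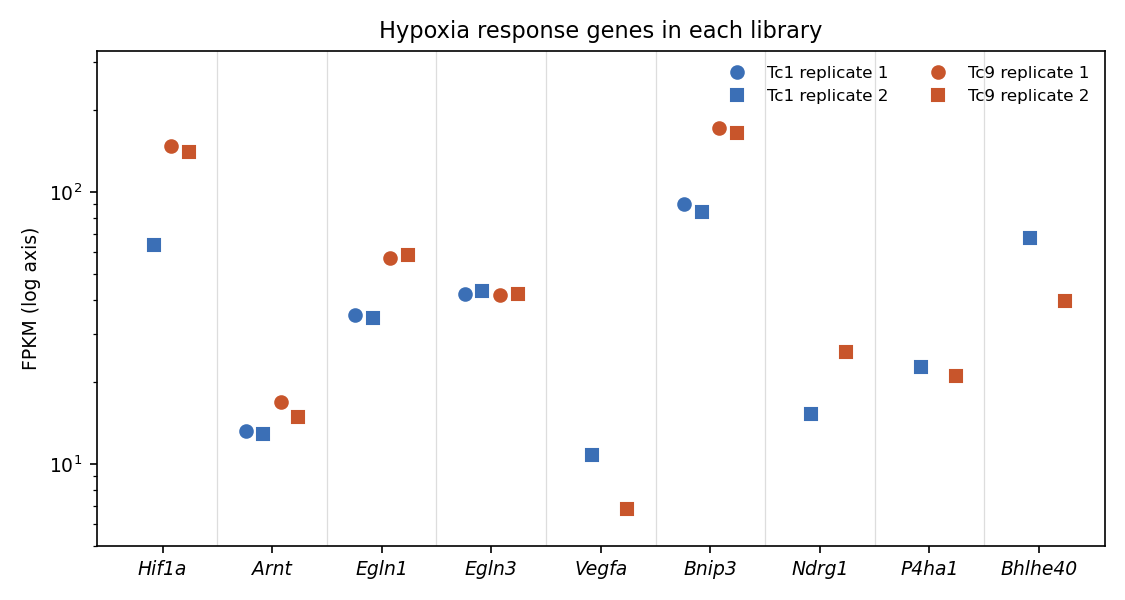
FPKM of the 9 genes in each library, on a log axis, with blue for Tc1 and orange for Tc9 and a circle for replicate 1 and a square for replicate 2. Points are single libraries, and a missing point means that the table of that library does not reach the gene. The 2 *Bnip3* points of Tc9 (170.98 and 163.86) sit above those of Tc1 (90.11 and 84.34), and the 4 *Egln3* points lie between 41.89 and 43.0.

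*Hif1a* (gene identifier 15251, chromosome 12, 73901324 to 73947554 in GRCm38.p6), which encodes HIF-1α, was counted 9239 times in the single Tc1 library that reached it, and 20694 and 19503 times in the Tc9 pools. The corresponding FPKM values were 63.71, 147.15 and 139.56. Both Tc9 libraries lay above the Tc1 library, and their SD was 0.060 on the log2 scale (n = 2). In edgeR's quasi-likelihood test on these 3 libraries, where the lone Tc1 library was assumed to vary like the Tc9 libraries, *Hif1a* rose 2.18-fold (log2 change 1.12 ± 0.21 SE, 95% confidence interval 0.60 to 1.64, Benjamini-Hochberg adjusted p = 0.0261). With no filter on low counts the same fold change had an adjusted p of 0.203 and no gene passed, so this call depends on the filter. Over the alternatives run for *Hif1a*, the adjusted p ranged from 4.28e-05 to 0.203.

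*Arnt* (11863, chromosome 3, 95434367 to 95497240), which encodes the shared β subunit, gave 1775 and 1738 counts from the Tc1 pools, against 2216 and 1932 from the Tc9 pools. The Tc9 libraries lay above both Tc1 libraries but had an SD of 0.14 on the log2 scale (n = 2), against a difference between the groups of 0.24 (± 0.12 SE, interval -0.02 to 0.51). The gene did not pass the threshold in the 4-library test of edgeR (adjusted p = 0.134). Without Tc9 replicate 2 it did, with a log2 fold change of 0.34 (adjusted p = 0.00244). The ratio of *Hif1a* to *Arnt* in FPKM was 4.95 in Tc1 replicate 2 and 8.71 and 9.40 in the Tc9 libraries, so the transcript of the α subunit exceeded that of its partner in all 3.

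*Epas1*, the gene for HIF-2α, is no member of the 9 but shares their partner ARNT. The Tc1 library that reached it held 31 counts of it, and the Tc9 pools held 824 and 1125, which corresponds to 0.19, 5.08 and 7.0 FPKM. Its log2 change of 4.97 (± 0.38 SE, adjusted p = 0.00192 in the 3-library edgeR test) was the largest among the listed HIF pathway genes tested there. The size depends on the scale, since Tc1 was near 0, and was 2.55 on log2(FPKM + 1) and 4.39 on log2(FPKM + 0.1). This call too was lost with no filter on low counts (adjusted p = 0.203). Even so, *Hif1a* stayed the more abundant α subunit transcript, with 29.0 and 19.9 times the FPKM of *Epas1* in the Tc9 libraries and 335 times in Tc1 replicate 2. *Arnt2*, a relative of *Arnt* used mainly in neurons, had 6 to 10 counts in each of the 4 libraries. Endothelial cells are rich in *Epas1*, and their part in these values was not tested. Their markers summed to 4.27 FPKM in Tc1 and 4.37 in Tc9 replicate 2. Nearly all of it was *Pecam1* (4.21 and 4.34), which T cells also express. *Vwf* had 18 and 6 counts, and *Cdh5* was at 0 in both.

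**Figure D3:**
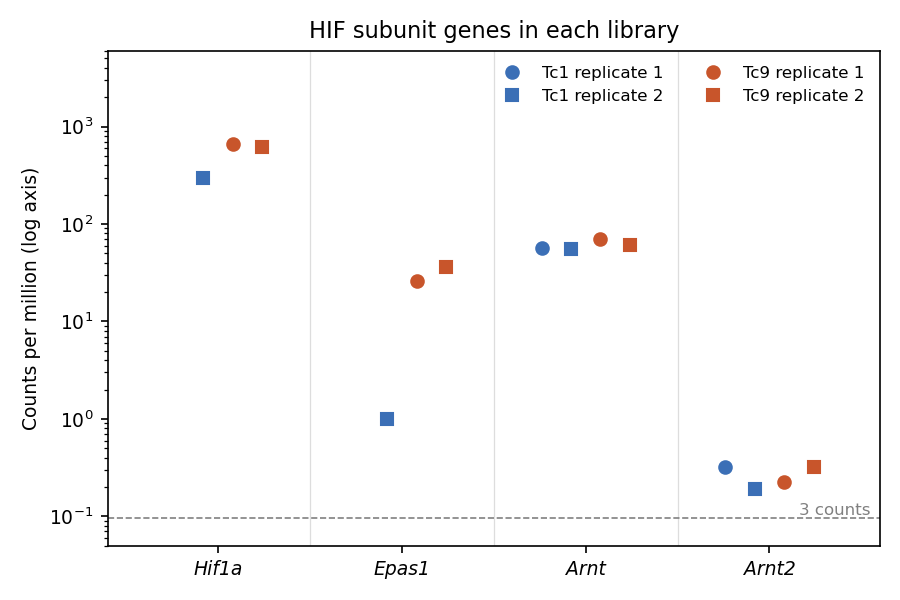
Counts scaled to library size (CPM) of 4 HIF subunit genes in each library, on a log axis, with the dashed line at 3 counts. The Tc9 points of *Epas1* stand far above its Tc1 point, *Hif1a* is the highest gene in every library that reaches it, and the points of *Arnt2* lie close to the line.

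*Egln1* (112405, chromosome 8, 124908587 to 124949254) encodes PHD2, the main hydroxylase that marks HIF-1α, and is itself a HIF target. The Tc1 pools gave 3796 and 3726 counts of it and the Tc9 pools 6018 and 6089, with no overlap and an SD on the log2 scale of 0.015 in Tc1 and 0.012 in Tc9. It rose 1.61-fold in the 4-library edgeR test (log2 change 0.69 ± 0.10 SE, interval 0.46 to 0.92, adjusted p = 0.00101). The size did not depend on which libraries were used, but the call did. Without Tc1 replicate 1 the log2 fold change was 0.70 (adjusted p = 0.104) and without Tc1 replicate 2 it was 0.68 (adjusted p = 0.0884).

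*Egln3* (112407, chromosome 12, 54178981 to 54203874) encodes PHD3, another hydroxylase of the family that low oxygen commonly induces. Its counts lay close together, 3416 and 3506 from the Tc1 pools and 3328 and 3326 from the Tc9 pools. In FPKM the groups overlapped, at 42.03 and 43.0 in Tc1 and 41.89 and 42.26 in Tc9. The log2 fold change was -0.05 (± 0.11 SE, adjusted p = 0.721 in the 4-library edgeR test), and its 95% interval of -0.29 to 0.19 leaves out a change of the size seen for *Egln1*. The ratio of *Egln1* to *Egln3* in FPKM was 0.838 and 0.801 in Tc1, against 1.36 and 1.38 in Tc9. *Egln1* was thus the lower of the pair in both Tc1 libraries and the higher in both Tc9 libraries. In the Tc9 libraries the gap was 0.45 and 0.47 on the log2 scale. On the log2 scale this ratio differed by 0.74 between the groups, with an SD of 0.047 in Tc1 and 0.013 in Tc9 (n = 2 each, two-sided exact permutation p = 0.333, the smallest that 2 libraries against 2 can give). The third sensor, *Egln2*, gave 1211 and 1199 counts from the Tc1 pools and 1284 and 1611 from the Tc9 pools (log2 change 0.27, adjusted p = 0.141 in edgeR's test).

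*Bnip3* (12176, chromosome 7, 138890836 to 138909506) is a HIF target whose product sits in the outer mitochondrial membrane and recruits the machinery of mitophagy. From the Tc1 pools came 4639 and 4343 counts, and from the Tc9 pools 8593 and 8165. The groups were far apart and the libraries within them close, with an SD on the log2 scale of 0.063 in Tc1 and 0.052 in Tc9 (n = 2 each). *Bnip3* rose 1.87-fold (log2 change 0.90 ± 0.11 SE, interval 0.66 to 1.14, adjusted p = 0.000193 in the 4-library edgeR test). The call in this test held under all 11 alternatives run, with adjusted p-values from 1.36e-12 to 0.0356, and leaving out 1 library gave log2 fold changes from 0.86 to 0.95. The related mitophagy receptor *Bnip3l* (NIX) went from 3647 and 3580 counts to 8962 and 8590, a log2 rise of 1.28 (± 0.11 SE, adjusted p = 2e-05). *Bnip3l* was the less abundant of the pair, at 0.411 and 0.429 of the *Bnip3* FPKM in Tc1, and at 0.544 and 0.549 in Tc9.

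Of the 4 genes measured in 4 libraries, 2 passed the test, both higher in Tc9, where 34.1% of the 1284 genes tested passed, 17.4% higher and 16.7% lower. Leaving out 1 library moved the 224 genes higher to between 72 and 404 and the 214 lower to between 39 and 407, with the lowest counts without Tc1 replicate 1, and when either Tc1 library was left out 1 of the 4 genes passed. In the 3-library test, 2 of 5 genes passed, *Hif1a* and *Bnip3* (log2 fold change 0.95, adjusted p = 0.0485), both higher, beside 10.7% of 2622 genes that passed, 7.51% higher and 3.2% lower. These shares depend on the scaling, as 197 genes higher and 84 lower became 327 and 208 with TMM factors of the 3-library range and 371 and 163 with library sizes alone. With no filter on low counts no gene passed, *Bnip3* included. In the 3-library test *Egln1* had a log2 fold change of 0.70 with an adjusted p of 0.107, *Arnt* 0.26 with 0.501 and *Egln3* -0.07 with 0.847. On counts scaled to library size, all 4 genes of the 4-library range had groups that did not overlap, but so had 70.4% of all genes tested there and 81.8% in the 3-library range, so the count of such genes carries no information here.

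**Figure D4:**
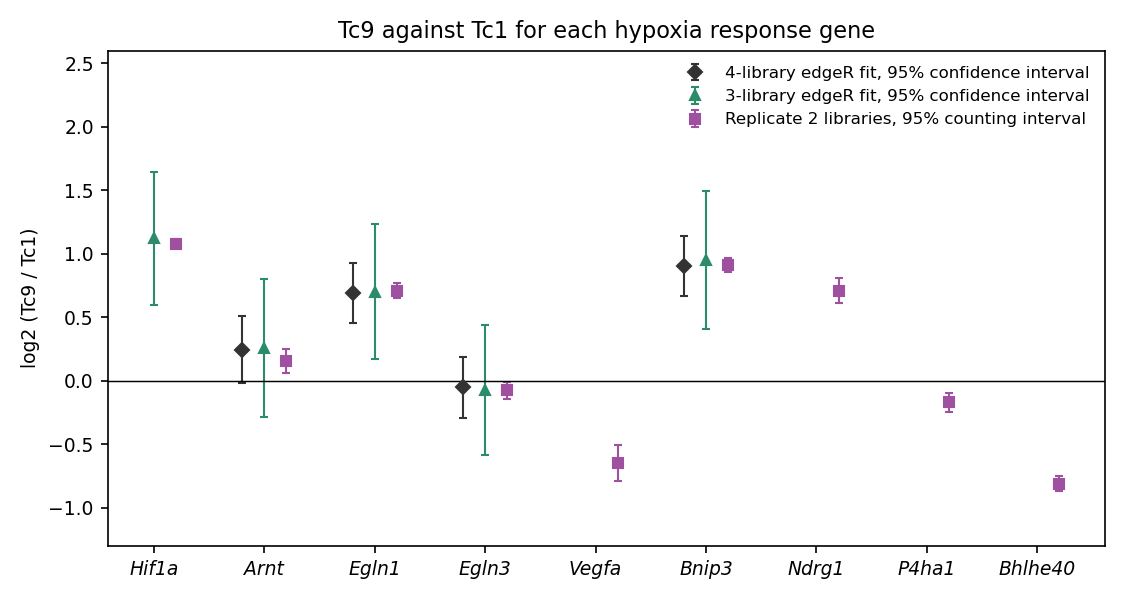
Log2 ratio of Tc9 to Tc1 for each of the 9 genes, from the 4-library fit, the 3-library fit and the replicate 2 libraries. Bars are 95% confidence intervals of the fits or, for the replicate 2 libraries, 95% intervals from the 2 counts, which cover counting error only. The intervals of *Hif1a*, *Bnip3*, *Egln1* and *Ndrg1* lie above 0 and those of *Vegfa*, *P4ha1* and *Bhlhe40* below it, while the fitted intervals of *Arnt* and *Egln3* include 0.

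The other 4 genes could be compared in the replicate 2 libraries alone. Their intervals cover counting error only, and no p-value can be given. Nothing in the pair says how far libraries of one group vary, so the 0.50 between the Tc9 libraries serves as a yardstick. Of 3588 genes with at least 500 counts in both libraries, 27.6% differed between them by more than that.

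*Ndrg1* (17988, chromosome 15, 66929318 to 66969641), a stress-response gene that low oxygen induces in many cell types, had 1347 counts on the Tc1 side of the pair and 2204 on the Tc9 side. It was thus 1.64-fold higher in the latter (log2 ratio 0.71, 95% Wilson interval 0.61 to 0.81), which is beyond the yardstick. *Vegfa* (22339, chromosome 17, 46016993 to 46032377), the growth factor of blood vessels and a classical HIF target, went the other way. It stood at 1018 counts in Tc1 against 649 in Tc9 (log2 ratio -0.65, interval -0.79 to -0.51), also beyond the yardstick. Its receptors *Flt1* and *Kdr* had at most 2 counts in each library that reached them, and the VEGF co-receptor *Nrp1* had 433 and 544 counts (log2 ratio 0.33). The related *Vegfb* stood at 448 and 821 counts, and *Vegfc* at 0 and 2.

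*Bhlhe40* (20893, chromosome 6, 108660629 to 108666925) encodes a transcriptional repressor of the basic helix-loop-helix class, induced by low oxygen and by T cell receptor signals. It had the largest difference of the 4 genes, 6398 counts against 3644, a log2 ratio of -0.81 (interval -0.87 to -0.75). That is 1.75-fold higher in Tc1 than in Tc9. *P4ha1* (18451, chromosome 10, 59323197 to 59373304), a catalytic subunit of the prolyl hydroxylase that modifies collagen, had 2845 and 2525 counts. Its log2 ratio of -0.171 (interval -0.25 to -0.09) was beyond counting error but within the yardstick. It was just beyond the narrower spread between the Tc1 libraries (0.162). None of these 4 genes differed by more than 2-fold. Over all 9 genes, *Hif1a* alone did (log2 ratio 1.08), beside 10.5% of the 6161 genes compared that were past 2-fold higher in Tc9 and 4.72% lower.

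The 9 genes were set beside a list of 78 other genes of the HIF pathway. In the 4-library test 3 of 6 listed genes were higher in Tc9 and 0 lower, beside 17.4% and 16.7% of all genes tested. Their median log2 fold change was 0.35, and that of all genes tested was 0.0014. They were *Bnip3l*, *Kdm3a* and *Aldoa*. *Kdm3a*, a histone demethylase that needs oxygen and is a HIF target, went from 3368 and 2988 counts to 6524 and 5555 (log2 change 0.93 ± 0.12 SE, adjusted p = 0.000471 in edgeR's test). *Aldoa*, a glycolytic enzyme, went from 65162 and 64513 counts to 77219 and 97318 (log2 change 0.43 ± 0.12 SE, adjusted p = 0.0183). The *Aldoa* call was lost without either Tc1 library (adjusted p = 0.180 and 0.123) and with no filter on low counts (0.0966).

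In the 3-library test 4 of 17 listed genes were higher and 1 lower, beside 7.51% and 3.2% of all genes tested. Their median log2 fold change was 0.26, beside 0.049 for all genes tested. *Gys1*, glycogen synthase, stood at 879 counts in the Tc1 library and at 1729 and 2362 in those of Tc9 (log2 change 1.22 ± 0.28 SE, adjusted p = 0.0466 in edgeR's test). *Hmox1*, which degrades heme, was the 1 that fell, from 502 counts down to 196 and 240 (log2 change -1.20 ± 0.23 SE, adjusted p = 0.0261). The calls of *Gys1* and *Hmox1* were lost with no filter on low counts (adjusted p = 0.278 and 0.234). *Bnip3l* (log2 fold change 1.29, adjusted p = 0.0197) and *Kdm3a* (1.02, adjusted p = 0.0485) passed here too. Of the 11 glucose and lactate genes compared between the replicate 2 libraries, 8 were higher and 3 lower in Tc9 (median log2 ratio 0.12). *Hk2*, the first enzyme of glycolysis, stood at 7568 counts in the Tc1 library and at 5319 and 4973 in those of Tc9 (log2 change -0.56, adjusted p = 0.163). *Ldha*, which makes lactate, had 89646, 73620 and 76689 counts (-0.25, adjusted p = 0.393), and *Eno1*, another glycolytic enzyme, had 106586, 101516 and 122480 (0.07, adjusted p = 0.844). *Aldoa* and *Ldha* have processed pseudogenes, and how reads shared with such copies were counted is not given in the sources used here.

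Between the replicate 2 libraries, 32 of 42 listed genes were higher and 10 lower in Tc9, where 47.6% of all 6161 genes were lower. Past 2-fold were 6 higher and 2 lower, beside 10.5% and 4.72% of all genes. Their median log2 ratio was 0.33, beside 0.030 for all genes. Of the 25 genes that only this pair reached and that passed the filter on low counts, *P4ha2*, *Nfil3* and *Car9* were more than 2-fold higher in Tc9. *P4ha2*, another catalytic subunit of the collagen hydroxylase, went from 176 counts to 808 (log2 ratio 2.19, interval 1.96 to 2.43), while *P4ha1* was at -0.17. The 2 subunits had unlike levels, 22.78 and 20.97 FPKM for *P4ha1* and 2.58 and 12.25 for *P4ha2*. *Nfil3*, a transcription factor of the bZIP class, had 1733 and 4375 counts (1.34, interval 1.26 to 1.42). *Car9*, a carbonic anhydrase, had 11 and 48 counts and was named after its values were seen.

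*Pdgfb*, a growth factor for the cells around vessels, was more than 2-fold lower in Tc9, with 543 and 259 counts (-1.06, interval -1.28 to -0.85). *Tfrc*, the transferrin receptor that brings iron into cells, had 19529 and 11846 counts (-0.72). *Vhl*, the adaptor that delivers hydroxylated HIF to the ubiquitin ligase, had 892 and 770 counts (-0.21) and *Stc2* 595 and 524 (-0.18). On the higher side followed *Ndrg4* with 42 and 77 counts (0.85) and the histone demethylase *Kdm4b* with 679 and 1219 (0.84). Of the glucose transporters, *Slc2a1* had 2616 and 2621 counts (log2 ratio 0.0037) and *Slc2a3* 3627 and 5944 (0.71).

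**Figure D5:**
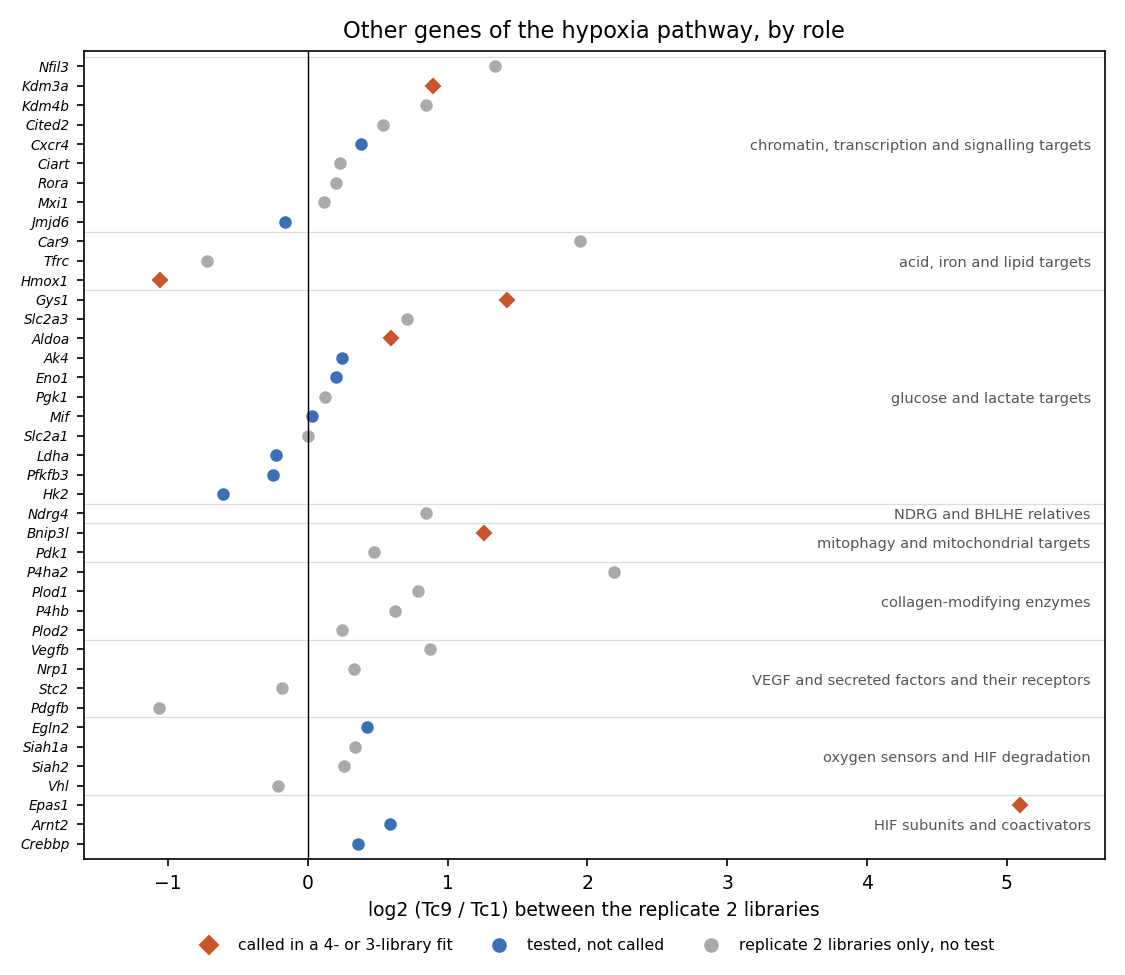
Log2 ratio of Tc9 to Tc1 replicate 2 for 41 of the 42 listed HIF pathway genes that passed the filter on low counts, grouped by role. Diamonds passed the 4-library or the 3-library test, blue circles were tested and did not pass, and gray circles were reached by the replicate 2 libraries alone and have no test. *Epas1* stands farthest to the right, and *Hmox1* and *Pdgfb* farthest to the left.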

How the data were processed

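The authors sequenced pooled RNA of sorted tumor-infiltrating Tc1 and Tc9 cells and deposited, for each library and gene, an expected count without normalization, an FPKM value scaled by gene length and library size, and a gene length. The labels name the build mm10; the aligner, the counting program and its use of strand are not given in the sources used here. A gene not listed within the reach of a table was taken as 0, and 1 incomplete last row was dropped. Of the counts of Tc9 replicate 2, 7.30% belong to 1329 loci without a symbol. The depth of Tc9 replicate 2, 30822953 counts, is the sum of its listed counts. The other tables hold part of the genes, so their depth was taken from count divided by FPKM. Well-counted genes (500 counts or more) listed with the same length in Tc9 replicate 2 were used. This gave 31834276 and 31927162 counts for Tc1 and 31105615 for Tc9 replicate 1. A floor of 3 counts is about 0.096 CPM (counts scaled to library size). Reads carry no molecular identifiers, so intervals and floors cover counting error only.

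Expected counts were rounded and tested in R 4.3.3 with edgeR 4.0.16 (quasi-likelihood test, two-sided, filterByExpr with a minimum count of 10, TMM factors of the 4-library range, Benjamini-Hochberg adjustment over all genes tested, threshold 0.05). The test was made over genes that all 4 tables reach and over genes that 3 tables reach. The replicate 2 libraries were compared by log2 ratios of scaled counts with a prior count of 2 and Wilson intervals. DESeq2 1.42.0 and limma 3.58.1 on log2(FPKM + 1) and log2(FPKM + 0.1) were among the alternatives, and the edgeR code was tested on simulated data. The chi-square between replicates had a mean of 4.40 per gene for Tc1 and 57.0 for Tc9, with medians of 1.08 and 5.98. No library was taken as a repeat of another.

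All 9 genes are named. Of the 78 listed genes, those called in a test are named, and of those reached by the replicate 2 libraries alone the 5 highest and 5 lowest ratios among genes with at least 50 counts in either library. The others named (*Egln2*, *Arnt2*, *Vegfc*, *Flt1*, *Kdr*, *Nrp1*, *Hk2*, *Ldha*, *Eno1*, *Slc2a1*, *Slc2a3* and *Car9*, and the genes of Tc9 replicate 2 alone) were chosen after their values were seen. The genes and the lists were chosen with earlier results of these data known, and no list was tested as a set. The value of 1 listed gene that this rule names is not reported here, in the text or in a figure. Promoter sequences are from RefSeq (GRCm38.p6, the build of mm10), and gene coordinates from its annotation.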

Additional observations from a re-analysis of the deposited data

Results flagged for a closer look

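The table of Tc9 replicate 2 reached 29 genes of the HIF pathway list that no other table reached, so they entered no comparison, and 28 of them had more than 3 counts. *Ero1l*, an oxidase of protein folding that low oxygen induces, had 16116 counts (121.72 FPKM), and the coactivator *Ep300* had 10023 counts. *Elob*, a part of the VHL ubiquitin ligase, stood at 447.99 FPKM and the mitochondrial HIF target *Fam162a* at 208.5 FPKM. The lactate exporter *Slc16a3* had 4052 counts, and *Hif1an*, the asparaginyl hydroxylase that blocks HIF from its coactivators, had 2023. *Hif3a*, the third α subunit, had 133 counts and 0.64 FPKM, and *P4ha3* was at 0. There is no Tc1 library to set these values against. Groups of 2 libraries are too small for a check on single libraries that stand apart.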

How the results depend on the processing

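Under the alternatives run, 120 values of the main results were labeled as unchanged, 25 were not, and none was reversed. Tested fold changes were judged by their direction and side of the threshold. Counts of genes were judged by closeness to the main count, and replicate 2 ratios by how far they moved. The 120 include counts of listed genes lower in Tc9 that were 0 in every 4-library setting. In the 4-library test, 224 genes were higher and 214 lower. With no filter on low counts these were 130 and 110. Leaving out 1 library gave from 72 to 404 genes higher and from 39 to 407 lower, with the lowest counts without a Tc1 library. In the 3-library test, 197 genes were higher and 84 lower. Library sizes without TMM gave 371 and 163, TMM factors of the 3-library range 327 and 208, and a minimum count of 50 gave 297 and 166. With no filter edgeR called 0 genes higher and 0 lower, and so 0 of the listed genes either way, although 370 and 228 genes had an unadjusted p under 0.05. DESeq2, which was run only on the filtered genes, called 217 and 121. The cause of this loss was not tested. With no filter *Hif1a* kept its log2 fold change of 1.12 (adjusted p = 0.203), and single Tc9 libraries gave 1.08 to 1.16. *Arnt* passed without Tc9 replicate 2 (0.34, adjusted p = 0.00244) and ranged from 0.14 to 0.34 as 1 library was left out. *Egln1* ranged from 0.68 to 0.70 and lost its call without Tc1 replicate 1 (0.70, adjusted p = 0.104) or Tc1 replicate 2 (0.68, adjusted p = 0.0884). On log2(FPKM + 1), *Bhlhe40* was at -0.75 in place of -0.81. Averaging Tc9 replicate 1 into the replicate 2 comparison could not be run, because that table reaches none of the 4 genes.

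With the replicate number as a block, 231 genes were higher and 213 lower, and 406 of 438 calls were shared. It changed no call of the 4 genes. Same-numbered libraries share only a number, and their deviations from the group means correlated by -0.065 over 1284 genes.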
